A study of Homo sapiens with 18 samples.

Results

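KRAB-D9 cells given doxycycline together with interferon alpha were compared with KRAB-D9 cells given interferon alpha alone, across all genes, as the comparison in which SAMD9 RNA is held down while interferon would raise it. The comparison rests on 4 of the study's 18 libraries, 2 in each group, chosen by their labels, and 22143 of 41285 genes had enough reads to be tested. KRAB-D9 is a derivative of K562, an erythroleukaemia-like line from a patient with chronic myeloid leukaemia, in which doxycycline induces a dCas9-KRAB repressor directed at SAMD9. Both groups carried that system and both received recombinant human interferon alpha at 1000 U/mL for 24 hours. Only the doxycycline group received the drug, at 2 µg/mL, from 24 hours before interferon until harvest. The other groups used below are untreated KRAB-D9 cells, KRAB-D9 cells with doxycycline alone, parental K562 cells with or without interferon, and the VPR-D9 line, in which doxycycline induces a dCas9-VPR activator, untreated or in the doxycycline groups D2000 and D6. What D2000 and D6 stand for, the guide sequence, where the cassettes sit and whether KRAB-D9 is 1 clone are not stated by the labels. No parental group with doxycycline was analysed here, so effects of the drug, of the dCas9 protein and of lower SAMD9 cannot be told apart.

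Interferon alpha binds the receptor made of IFNAR1 and IFNAR2 and activates the kinases JAK1 and TYK2. STAT2 in complex with IRF9 then binds interferon-stimulated response elements in promoters, which switches on a broad set of antiviral genes. SAMD9 and its neighbour and paralogue SAMD9L are interferon-induced proteins that restrict poxviruses and cell growth, and gain-of-function variants of either cause marrow failure. KRAB recruits silencing chromatin to the site where dCas9 is placed.

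The promoters are shown because the repressor is directed at SAMD9 while many interferon genes share a promoter motif. The core of the response element was searched as GAAA, any 2 bases and GAAA on both strands in the 250 bases before each gene's start, in RefSeq promoters on GRCh38.p14. Symbols matched for 12367 of the 22143 genes tested, and 2.51% of these promoters held the core. It was present in 29.9% (32 of 107) of the promoters of genes that interferon raised over 2-fold in parental cells. SAMD9 is shown outside the gene body as the count table places it, and SAMD9L over the whole window. Capitals mark every match, overlapping ones included.
SAMD9, chr7:93118024-93118229, minus strand: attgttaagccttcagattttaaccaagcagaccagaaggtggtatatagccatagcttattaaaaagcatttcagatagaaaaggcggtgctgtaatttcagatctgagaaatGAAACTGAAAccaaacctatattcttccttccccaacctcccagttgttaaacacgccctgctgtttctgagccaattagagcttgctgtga
SAMD9L, chr7:93148386-93148635, minus strand: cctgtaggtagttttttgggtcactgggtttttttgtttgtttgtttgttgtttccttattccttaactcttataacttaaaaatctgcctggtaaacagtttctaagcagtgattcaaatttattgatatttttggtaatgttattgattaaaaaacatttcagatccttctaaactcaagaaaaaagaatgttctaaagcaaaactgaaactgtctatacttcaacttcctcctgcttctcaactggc
SAMD9 held GAAACTGAAA once, and the SAMD9L window held no match to these letters. Of the interferon-raised genes, 42.9% (12 of 28) of those lower with doxycycline held the core, or 40.7% (11 of 27) without SAMD9, which is the repressor's target, 18.2% (2 of 11) of those higher and 26.5% (18 of 68) of those not called. These shares rest on few promoters and are given as a description. Short windows around the first match are shown for 7 genes that were lower, the 2 that were higher and 3 that were not called, and capitals at a window's edge belong to a further match that runs past it.
IFI44L, chr1:78620274-78620303, plus strand: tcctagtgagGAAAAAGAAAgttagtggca
IFIT3, chr10:89327831-89327860, plus strand: agccgttaggTTTCATTTTCctcctcccaa
DDX60, chr4:168318821-168318850, minus strand: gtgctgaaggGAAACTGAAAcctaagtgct
IFIH1, chr2:162318824-162318853, minus strand: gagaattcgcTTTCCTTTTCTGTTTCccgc
ISG15, chr1:1013374-1013403, plus strand: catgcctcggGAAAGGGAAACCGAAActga
IFIT1, chr10:89392497-89392526, plus strand: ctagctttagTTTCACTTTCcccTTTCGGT
IFITM3, chr11:320893-320922, minus strand: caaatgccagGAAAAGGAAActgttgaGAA
IFI27, chr14:94110618-94110647, plus strand: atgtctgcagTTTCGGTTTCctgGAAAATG
BST2, chr19:17405741-17405770, minus strand: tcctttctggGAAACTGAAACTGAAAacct
OAS3, chr12:112938321-112938350, plus strand: agaaagaaacGAAACTGAAAgcagggaatt
EPSTI1, chr13:42992272-42992301, minus strand: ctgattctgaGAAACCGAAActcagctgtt
LGALS3BP, chr17:78979962-78979991, minus strand: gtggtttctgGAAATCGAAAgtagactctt
The same letters thus occurred in genes of all 3 outcomes, GAAACTGAAA itself in SAMD9, DDX60, BST2 and OAS3. Some of these outcomes depended on the processing. LGALS3BP and OAS3 were called lower in some other settings, and DDX60 and BST2 lost their calls in some.

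The 4 libraries held 32.7 M (interferon replicate 1), 59.7 M, 56.3 M and 54.0 M counts. The interferon-alone libraries differed from each other by a variance 17.9 times that of counting, where the remaining 8 groups ranged from 4.59 to 6.67, and mitochondrial genes took 4.12 and 3.40% of their counts against 3.62 and 3.70% with doxycycline. Values are TMM-scaled CPM (counts scaled to a common library size), and fold changes are log2 values ± the standard error from edgeR's quasi-likelihood fit. Genes under 0.05 after Benjamini-Hochberg adjustment across the whole table were called. The labels do not say that the libraries of a group were separate cultures, so p-values measure the spread between these samples. Erythroid markers were present in all 4 libraries: GATA1 lay between 237 and 247 CPM and TFRC between 1413 and 1718 CPM.

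SAMD9 stood at 55.0 and 53.5 CPM with interferon alone and at 0.849 and 0.745 CPM when doxycycline was present. The mean with doxycycline was 1.47% of the mean with interferon alone, and untreated KRAB-D9 cells were at 0.750 and 0.364 CPM. The difference was -6.08 ± 0.11 (edgeR, Benjamini-Hochberg adjusted p = 5.40e-26), the largest fall of any gene that met the rule for naming. The interferon level in KRAB-D9 was itself below that of parental cells, where SAMD9 reached 161 ± 9.26 CPM (SD, n = 2), a difference between lines that was not tested.

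SAMD9L, the adjacent gene, was at 37.2 and 31.8 CPM with interferon and at 24.9 and 23.4 CPM with doxycycline added. The groups did not overlap, and the difference was -0.51 ± 0.13 (edgeR, Benjamini-Hochberg adjusted p = 0.00278). Of the other genes at 1 CPM or more within 1 Mb of SAMD9, HEPACAM2 (-0.34) and FAM133B (-0.30) were lower, and GATAD1 (0.24) and the sterol enzyme CYP51A1 (0.56) were higher. The cell cycle kinase CDK6 (-0.04) and VPS50 (-0.06) were not called.

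Across all genes, SAMD9 included, 4929 (22.3%) were called, 2302 higher (10.4%) and 2627 lower (11.9%). Most changes were small. Only 274 genes rose (1.24%) and 233 fell (1.05%) by over 2-fold, and the median called fall was -0.31. Libraries of the groups did not overlap for 2295 of the 2302 higher and 2609 of the 2627 lower genes, where 27.9% and 25.7% of all genes tested were separated in those directions. Scaled by library totals in place of TMM, 61.4% of calls were higher rather than 46.7%, and the median over all genes moved from 0.01 to 0.07. With only these 4 libraries in the fit, 1515 genes were called higher.

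Interferon genes as a class were shifted by much less than SAMD9. Of 161 genes that rose over 2-fold with interferon in parental cells, 37 (23.0%) were lower and 18 (11.2%) higher when doxycycline was added, with a median of -0.06. Over all genes 11.9% were lower and 10.4% higher, and over protein-coding genes 17.4% and 13.9%. A like lower share was seen in genes that interferon moved less in parental cells. Of the 272 that fell under 2-fold 25.7% were lower and 21% higher, and of the 510 that rose under 2-fold 23.1% and 32.5%. The 57 genes that rose over 16-fold held 17 lower and 4 higher, with a median of -0.25, and the 49 that rose 4- to 16-fold held 10 lower and none higher. The 55 that rose 2- to 4-fold held 10 lower and 14 higher, with a median of 0.07. Genes that interferon did not change in parental cells had a median of 0.01. The remaining 106 of the 161 were not called. Interferon itself called 960 genes in parental cells (4.34%), 671 higher (3.03%) and 289 lower (1.31%). In KRAB-D9 it called 1417 (6.4%) without doxycycline, 882 higher (3.98%) and 535 lower (2.42%), and 1082 (4.89%) under doxycycline, 691 higher (3.12%) and 391 lower (1.77%). These KRAB-D9 contrasts share libraries with the comparison made here and are given side by side only.

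**Figure D1:**
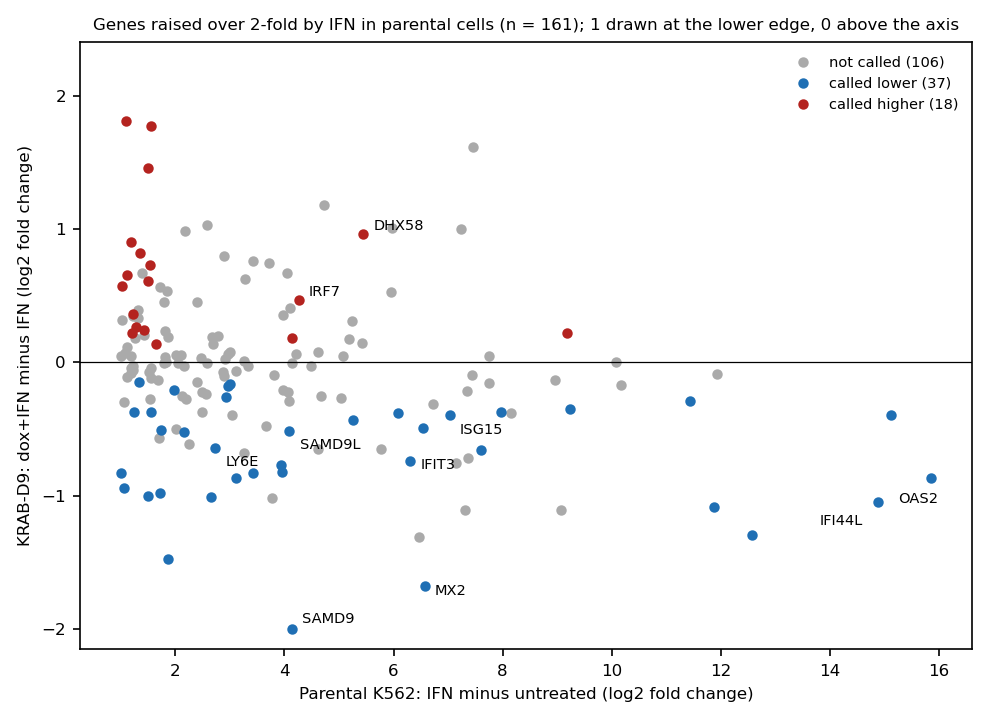
Log2 fold change with doxycycline plus interferon against interferon alone in KRAB-D9 (vertical axis) for 161 genes raised over 2-fold by interferon in parental K562, by the size of that rise (log2, horizontal axis). Points are genes; 37 are lower, 18 higher and 106 not called, and SAMD9 is drawn at the lower edge because its value is -6.08.

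MX2, a GTPase that blocks nuclear entry of HIV-1, was among the genes that fell most. It was at 12.8 and 13.6 CPM with interferon and at 4.37 and 3.89 CPM with doxycycline added, a change of -1.68 ± 0.23. IFI44L went from 71.6 and 61.1 CPM to 32.9 and 31.1 CPM (-1.05 ± 0.09). In both genes every doxycycline library was below every interferon library, and IFI44, the neighbour of IFI44L, changed by -1.08 ± 0.30. MX1, the cytoplasmic relative of MX2, fell less, by 0.40.

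Among the sensors that make 2-5A, the activator of RNase L, OAS2 went from 178 and 183 CPM to 103 and 94.7 CPM (-0.86 ± 0.08), and OAS1 changed by -0.29. OAS3 was at 804 and 891 CPM with interferon and 803 and 783 CPM with doxycycline, a change of -0.10 ± 0.05 (adjusted p = 0.189, edgeR with Benjamini-Hochberg). It was called lower without interferon replicate 1 (-0.17). The 3 enzymes therefore did not share a single value. The RNA sensor IFIH1 (MDA5) fell by 0.43, while DHX58 (LGP2), the regulatory member of the same helicase family, rose from 12.6 and 12 CPM to 23.5 and 24.4 CPM. That rise was 0.97 ± 0.13. Of the 12 tested members of the sensor list 1 was higher and 4 were lower.

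IFIT3, which binds IFIT1 on foreign RNA, went from 89.2 and 85.4 CPM to 53.3 and 51.2 CPM (-0.74 ± 0.08), and IFIT1 changed by -0.37. IFITM2, a membrane protein that blocks virus entry, went from 127 and 124 CPM to 65.7 and 65.7 CPM (-0.94 ± 0.05), IFITM3 by -0.26. IFITM1, from the same cluster, was not called (0.04). In this list 4 of 7 tested members were lower and none higher (1 without interferon replicate 1), with a median of -0.38. The IFITM genes are close copies, so reads shared between them make their separate values uncertain.

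ISG15, the ubiquitin-like modifier, fell from 710.4 and 781 CPM to 576 and 558 CPM (-0.40 ± 0.04), and HERC6 by 0.35. The conjugating enzyme UBE2L6 was at 145 and 134 CPM against 142 and 136 CPM, overlapping groups with a value of -0.01. Of the 6 members of the conjugation pathway, 2 were lower, or 1 without doxycycline-plus-interferon replicate 2, and none higher. LY6E, a membrane protein that restricts coronaviruses, went from 402 and 447 CPM to 273 CPM in both doxycycline libraries (-0.64 ± 0.05), and LGALS9 from 34.9 and 39.1 CPM to 21 CPM in both (-0.82 ± 0.11). RSAD2 (viperin) changed by -0.38.

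Signalling genes moved apart from one another. STAT3 fell by 0.28, while STAT2 rose by 0.22. IRF7, which amplifies interferon production, went from 48.4 and 57.3 CPM to 72.2 and 74.2 CPM (0.47 ± 0.09). SOCS1, a feedback inhibitor of JAK1, was at 9.60 and 15.5 CPM with interferon and 6.77 and 6.44 CPM with doxycycline (-0.95 ± 0.18), with the interferon libraries far apart. In the receptor, STAT and IRF list 2 of 15 members were higher and 4 lower, or 2 lower without doxycycline-plus-interferon replicate 2. IFI27 (0.22), BST2 (0.14), TRIM5 (0.39), TRIM38 (0.40) and PARP9 (0.18) were higher, and TRIM22 (-0.49) was lower. Beside 10.4% higher and 11.9% lower over all genes, 3 of 31 other antiviral effectors were higher and 11 lower. Of 20 PARP, TRIM and nuclear body genes 3 were higher and 3 lower, near the shares over all genes, as was the count of higher effectors. Without doxycycline-plus-interferon replicate 1 these fell to 1 higher effector and 1 lower PARP or TRIM gene, the latter also without its replicate 2. The BST2 and PARP9 calls were lost without doxycycline-plus-interferon replicate 1 (edgeR, Benjamini-Hochberg adjusted p = 0.175 and 0.211), and the HERC6 and RSAD2 calls without its replicate 2 (0.0936 and 0.0917).

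**Figure D2:**
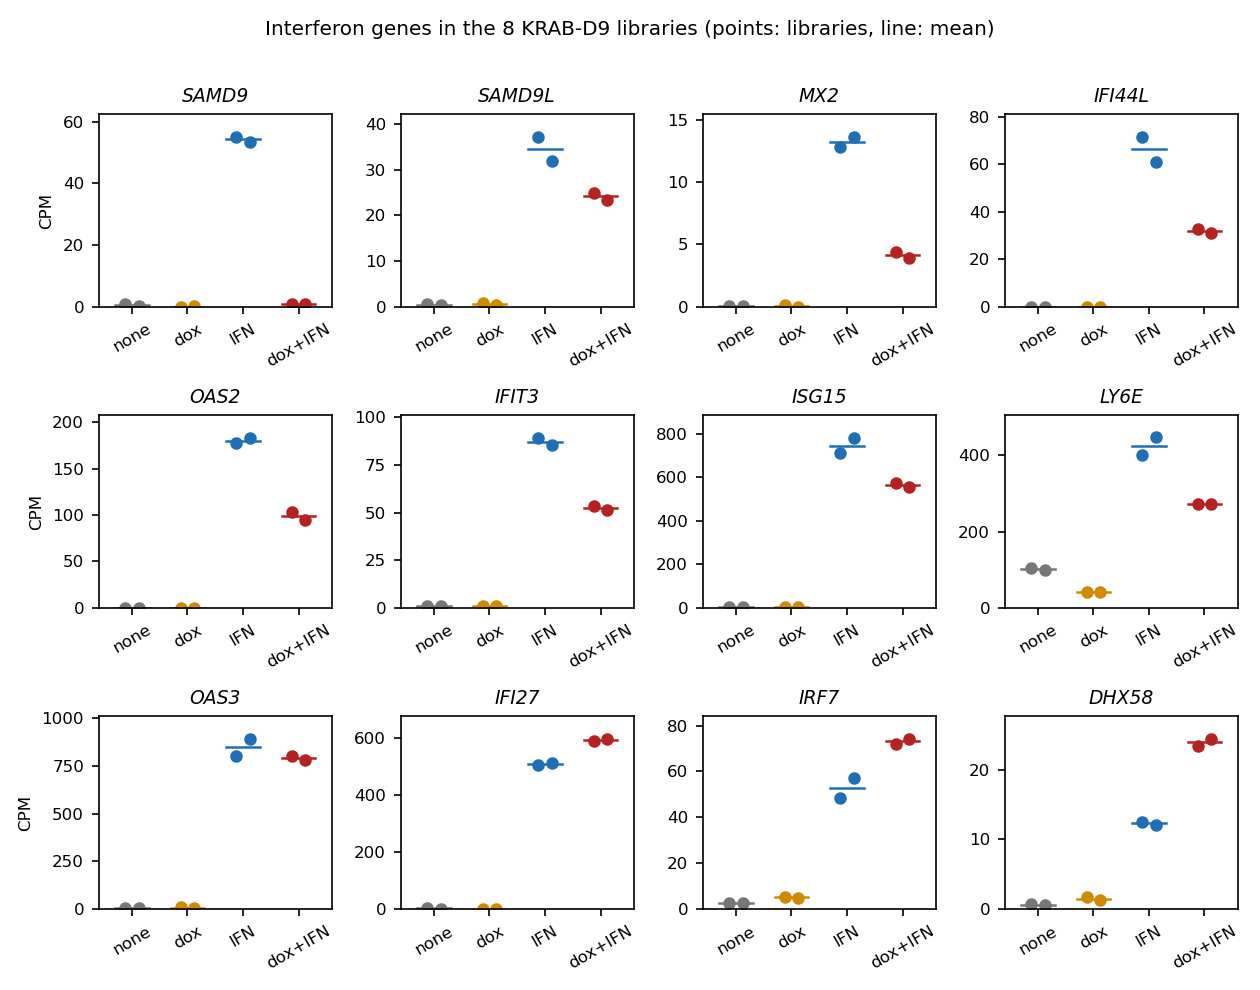
CPM (linear axes from 0) of 12 interferon genes in untreated, doxycycline, interferon and doxycycline-plus-interferon KRAB-D9 libraries; points are libraries and lines are means of 2. SAMD9 falls to near 0, MX2, IFI44L, OAS2 and IFIT3 fall in part, OAS3 libraries nearly meet at 804 and 803 CPM, and IFI27, IRF7 and DHX58 lie higher with doxycycline.

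In antigen presentation, the inducible proteasome subunits that replace constitutive ones under interferon were lower. PSMB10 went from 12.4 and 15.7 CPM to 7.73 and 7.49 CPM (-0.90 ± 0.13), PSMB9 changed by -0.83, PSMB8 by -0.87 and the activator subunit PSME2 by -0.44 ± 0.05. The median over 5 members was -0.83, beside -0.10 over the 3 constitutive subunits, of which 1 was lower. PSMB8 and PSMB9 had at most 6.06 CPM, and their calls were lost without doxycycline-plus-interferon replicate 1 (edgeR, Benjamini-Hochberg adjusted p = 0.199 and 0.0607). B2M, the class I light chain, fell from 1114 and 1034 CPM to 867 and 805 CPM (-0.36 ± 0.04), and the peptide transporter subunit TAP2 by 0.37. Of 16 class I genes 5 were lower and none higher. Those lower included CALR and PDIA3, which are given again below as endoplasmic reticulum chaperones. The other transporter subunit, TAP1 (-0.02), and the HLA genes tested were not called.

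Ribosome assembly genes were lower almost as a block, by modest amounts. In the small-subunit processome, which folds and cleaves the precursor of 18S rRNA, 44 of 47 members were lower and none higher, with a median of -0.40. NOL6 went from 159 and 176 CPM to 91.3 and 97.3 CPM (-0.83 ± 0.05), UTP20 from 143 and 137 CPM to 86.1 and 86.8 CPM (-0.70 ± 0.04) and UTP14A by -0.66. HEATR1, which links the processome to RNA polymerase I, changed by -0.50. Within each gene the groups did not overlap.

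Large-subunit assembly factors included PES1 (-0.48 ± 0.04) and EBNA1BP2 (-0.46 ± 0.04), and 43 of 48 were lower and none higher. All 13 snoRNP and nucleolar scaffold genes were lower, among them NOP56 (-0.54), the scaffold nucleolin NCL (-0.45) and NOP58 (-0.19). NOP58 was not called without interferon replicate 1 (edgeR, Benjamini-Hochberg adjusted p = 0.0931). Of 15 RNA polymerase I genes 9 were lower, led by POLR1G, from 26.3 and 29.8 CPM to 17 and 16.8 CPM (-0.74 ± 0.09). The E-box CACGTG, searched on both strands, lay in 18.6% (8 of 43) of processome promoters and 12.5% (5 of 40) of large-subunit promoters, against 8.53% of all. The core of the interferon response element lay in 6.98% (3 of 43) and 10% (4 of 40) of the same promoters, against 2.51% of all. Both motifs rest on few promoters and are given as a description.

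MYC, which drives these genes in many cells, was itself lower, at 334 and 342 CPM against 229 and 224 CPM (-0.58 ± 0.04). Its antagonists MXD4 (15.3 and 19.3 CPM to 39.9 and 39.5 CPM, 1.18 ± 0.09) and MXD3 (0.80 ± 0.11) were higher. Ribosomal protein genes changed little. Of 85, 34 were lower and 3 higher with a median of -0.12, among them RPS26 (-0.27) and RPLP2 (-0.22), while RPLP0 rose by 0.19. Their count of lower members ran from 15 without doxycycline-plus-interferon replicate 2 to 53 without interferon replicate 2, and was 21 without interferon replicate 1. RPS26 has many processed copies, so its value is uncertain.

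Sterol synthesis genes rose together: 21 of 25 were higher and 1 lower (none without interferon replicate 2), with a median of 0.42. HMGCS1, which commits acetyl units to the mevalonate pathway, went from 303 and 286 CPM to 511 and 539 CPM (0.83 ± 0.04). Lanosterol synthase LSS went from 133 and 140.1 CPM to 244 and 249 CPM (0.85 ± 0.05), and MSMO1 changed by 0.86. Fatty acid genes divided, with 6 of 12 higher, but 3 without doxycycline-plus-interferon replicate 2, and 3 lower. The malic enzyme ME1 went from 31 and 30.1 CPM to 36.4 and 38 CPM (0.29 ± 0.07), a call lost without that library. FASN went from 676 and 872 CPM to 460.2 and 481 CPM (-0.72 ± 0.10) and FADS1 from 737 and 685 CPM to 473 and 476 CPM (-0.58 ± 0.04).

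ATF4, the transcription factor of the amino acid and integrated stress responses, was higher, at 321 and 313 CPM against 219 and 220.2 CPM (0.53 ± 0.04). Of 16 tested genes of its response 8 were higher and 1 lower. DDIT4 (REDD1), an inhibitor of mTORC1, went from 45.9 and 51.2 CPM to 149 and 152 CPM, the largest rise named (1.63 ± 0.13). PHGDH, the entry enzyme of serine synthesis, rose from 12.4 and 14.5 CPM to 35.0 and 33.2 CPM (1.33 ± 0.09), and PSAT1, the next enzyme, by 0.56. The cystine transporter SLC7A11 (0.87) and the glycine transporter SLC6A9 (1.03) were higher too. Their lists were divided. Of 12 amino acid transporters tested 4 were higher and 4 lower, and of 13 serine and one-carbon genes 3 and 3. Scaled by library totals, 1 transporter was lower and 5 serine and one-carbon genes were higher. Of 20 cytosolic tRNA synthetases 6 were higher and 7 lower, with CARS1 at 0.74 and RARS1 at -0.44.

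Endoplasmic reticulum chaperones went the other way, with 14 of 19 lower and none higher. HSPA5 (BiP) went from 910.4 and 932 CPM to 621 and 595 CPM (-0.60 ± 0.04), HSP90B1 changed by -0.62, CALR by -0.68 and PDIA3 by -0.47.

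Haem synthesis and red-cell membrane genes were mostly higher, while globins, iron genes and erythroid transcription factors were divided. All but 1 of the 11 haem synthesis genes were called higher, with a median of 0.44. PPOX went from 38.6 and 38.0 CPM to 76.9 and 80.5 CPM (1.04 ± 0.06), ALAD changed by 0.70, and the erythroid rate-limiting enzyme ALAS2 went from 267 and 272 CPM to 363 and 366 CPM (0.44 ± 0.04). Of 12 iron handling genes 5 were higher and 4 lower. The mitochondrial iron importer SLC25A37 rose by 0.58, and the iron store subunit FTL fell from 2391 and 2366 CPM to 1488 and 1561 CPM (-0.64 ± 0.04).

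In the red-cell membrane list 13 of 20 were higher and 2 lower, or 1 lower without doxycycline-plus-interferon replicate 2. The cytoskeletal linker EPB42 went from 5.80 and 5.78 CPM to 16.2 and 15.8 CPM (1.47 ± 0.16). The Rhesus genes RHCE (1.30 ± 0.09) and RHD (1.03 ± 0.08) rose too, but they are close copies whose reads may be shared. Globins did not move as one, with 4 of 11 higher and 3 lower. The alpha globin HBA2 went from 204 and 270.4 CPM to 155 and 167 CPM (-0.56 ± 0.11) and HBA1 from 133 and 83.3 CPM to 68.9 and 58.5 CPM (-0.75 ± 0.19). HBQ1 rose by 0.71 and HBG2 by 0.34. HBA1 and HBA2 share reads, as do HBG2 and HBG1 (0.17, not called). Only 2 globins were higher without doxycycline-plus-interferon replicate 1, and 1 was lower without its replicate 2, where HBA1 lost its call. Of 12 erythroid transcription factors 3 were higher and 4 lower, and 2 were lower without interferon replicate 2 or without doxycycline-plus-interferon replicate 1. TAL1 (0.40) was higher and MYB (-0.34), which falls as red cells mature, was lower.

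Marker lists of other lineages did not move alike. The 16 myeloid markers summed to between 79.9 and 82.2 CPM with interferon and between 49.2 and 49.98 CPM with doxycycline added, with MPO and ELANE at 0 in the interferon group and ELANE at 0 in the other. CD33, a myeloid lectin, went from 35.5 and 35.3 CPM to 18.1 and 17.3 CPM (-0.999 ± 0.07), LYZ changed by -0.69 and SPI1 by -0.49. Of 12 tested, 4 were lower and none higher, and the median of the list was 0.09. The pan-leukocyte phosphatase PTPRC went from 84.6 and 79.9 CPM to 55.6 and 58.1 CPM (-0.53 ± 0.05). It made up most of the sum of 13 lymphoid markers, which went from between 87.1 and 93.7 CPM to between 60.7 and 63.98 CPM, with CD8A, CD79B and LCK at 0 in both groups. Of 10 lymphoid markers tested, 2 were lower and 1 higher, the latter not called without interferon replicate 1 or without doxycycline-plus-interferon replicate 2. FN1 (-1.26) and VIM (-0.64) led 7 lower genes of 10 tested in the fibroblast or epithelial list, whose 12 members summed to between 968 and 1000 CPM and then 752 and 758 CPM. The 14 megakaryocyte markers summed to more, from between 39.7 and 44.6 CPM to between 51.2 and 52 CPM with TREML1 at 0 in both groups, and 2 of 11 tested were higher and 3 lower. Without doxycycline-plus-interferon replicate 1 only 1 was higher. The median of the megakaryocyte list was -1.03. Its sum was carried by the platelet tubulin TUBB1, which went from 12.3 and 14.2 CPM to 36.1 and 32.2 CPM (1.35). The platelet integrin ITGA2B was lower (-1.03). Fewer cells of a type and less RNA per cell cannot be told apart in bulk RNA, and the part of such cells in any result was not tested.

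Cell cycle genes showed opposite moves of G1 regulators. CCND1 went from 19.9 and 17.5 CPM to 7.17 and 7 CPM (-1.40 ± 0.13) and CCND2 from 25.9 and 24.3 CPM to 12.3 and 13.5 CPM (-0.96 ± 0.09). CCNE1 (0.71) and the CDK inhibitors CDKN2C (0.55) and CDKN1B (0.37) were higher. Of 32 replication genes 6 were higher and 4 lower, and of 28 mitosis genes 5 and 1, beside 10.4% and 11.9% over all genes. Without interferon replicate 2 there were 10 higher replication genes and 4 lower mitosis genes, and without interferon replicate 1 there were 9 higher mitosis genes. Without doxycycline-plus-interferon replicate 1 there were 3 higher replication genes and 2 lower mitosis genes. Of 20 genes listed as p53 targets 10 were higher and 2 lower (1 without interferon replicate 2 or doxycycline-plus-interferon replicate 1), among them TP53INP1 (1.39 ± 0.13), although K562 lacks functional p53.

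Histone genes, singled out after their values were seen, were 22 higher and none lower of 35. H1-2, a linker histone, went from 774 and 723 CPM to 1450.3 and 1357 CPM (0.91 ± 0.04, edgeR, Benjamini-Hochberg adjusted p = 7.92e-21), the smallest p of any gene that rose. H2AC6 rose by 0.62, H2BC21 by 0.79 and H2BC17 by 1.14. Libraries were selected by poly(A), so these values count polyadenylated histone RNA. The median was 0.60, and with doxycycline alone it was 0.66.

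The largest rises after DDIT4 included those of the receptor CD226 (1.56), transferrin TF (1.55) and EPB42. HMCN1, CCNG2, RIMS3 and YPEL3 lay between 1.32 and 1.42. BNIP3L, which clears mitochondria in maturing red cells, rose by 1.10 ± 0.05 and SELENBP1 by 1.13 ± 0.06. The largest falls after SAMD9 included the neuropeptide NMU, from 302 and 311 CPM to 95.8 and 89.2 CPM (-1.73 ± 0.04), the adaptor LCP2 (-1.69), AIF1 (-1.65), GMFG (-1.59), CALB1 (-1.59), FCGR2A (-1.59) and EMP3 (-1.59 ± 0.05). For the largest rises and falls, libraries that did not overlap between the groups were a condition of naming.

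A group of neighbours on chromosome 19 fell together. PPP1R12C, a myosin phosphatase subunit whose first intron holds the AAVS1 site often used for transgene insertion, went from 68.9 and 74.5 CPM to 22.3 and 22.4 CPM (-1.69 ± 0.06). Within 250 kb, measured between gene edges and with PPP1R12C included, 12 of 17 genes at 1 CPM or more were lower and none higher. Within 500 kb 17 of 28 were lower. They included DNAAF3 (-1.78), the cardiac troponin TNNI3 (-1.76), the platelet collagen receptor GP6 (-1.54), SYT5 (-1.18), NLRP2 (-1.18), RDH13 (-0.47) and PTPRH (-0.42). TNNT1 went from 198 and 202 CPM to 83.7 and 74.0 CPM (-1.34 ± 0.05). The 500-kb stretch starting at chr19:55000001 (GRCh38) held 6 genes of 22 lower by over 1.5-fold. By count this was the most of 3477 such stretches holding a gene at 1 CPM or more, but not by share. The stretch at chr1:161500001 held 5 of 7 and that at chr1:26000001 held 4 of 12. The chromosome 19 group was singled out after its values were seen. With doxycycline alone PPP1R12C was at -1.48 and TNNT1 at -1.46, and in VPR-D9 PPP1R12C was at 1.26 in D2000 and 0.04 in D6 and TNNT1 at 0.06 and 0.14. Whether a cassette lies there was not tested.

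Doxycycline without interferon, measured in 4 other KRAB-D9 libraries, changed 5469 genes (24.7%), 2654 higher (12%) and 2815 lower (12.7%). Of the genes lower with interferon present 1949 were also lower without it, which is 74.2% of the first list and 69.2% of the second. For higher genes it was 1581, or 68.7 and 59.6%. Only 6 genes were called in opposite directions. The moves of most named genes outside the interferon response were close in size in both settings, as with MYC (-0.58 and -0.52), NOL6 (-0.83 and -0.75), HMGCS1 (0.83 and 0.67), EPB42 (1.47 and 1.96) and NMU (-1.73 and -1.57). Named interferon genes were mixed. IFITM2 (-0.94 and -0.93), LGALS9 (-0.82 and -0.83) and PSMB10 (-0.90 and -0.85) moved alike in both settings. IFIT3 (-0.74 and 0.11) and ISG15 (-0.40 and -0.15) were not called without interferon. The difference of their effects was not called either (edgeR, Benjamini-Hochberg adjusted p = 0.202 and 0.446). Without interferon IFIT3 had at most 1.14 CPM. Of the 161 genes that interferon raised over 2-fold in parental cells, 33 were higher and 20 lower with doxycycline alone. The effects were called different for 2 (more positive with interferon) and 8 (more negative), against 35 over all genes.

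The difference of the effects was called for 35 genes (0.158%), 14 more positive with interferon (0.0632%) and 21 more negative (0.0948%). UBE2L6 rose by 0.81 without interferon, from 6.19 and 6.78 CPM to 11 and 11.7 CPM, against -0.01 with it, and OAS3 by 0.65 against -0.10. IFITM1 and the mitochondrial nucleotide kinase CMPK2 had the same order (0.30 and 0.04, 0.50 and 0.08). The transglutaminase TGM2 rose by 0.885 without interferon and by 0.26 with it. LY6E went the other way, with -1.30 without interferon and -0.64 with it. For SAMD9 the difference of -2.85 ± 0.87 missed the threshold (adjusted p = 0.253, edgeR with Benjamini-Hochberg), with 0 and 6 counts in the doxycycline libraries. The number called was 769 without interferon replicate 2, 17 without doxycycline-plus-interferon replicate 2, and 18 to 21 without any 1 of the 4 libraries that had no interferon.

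**Figure D3:**
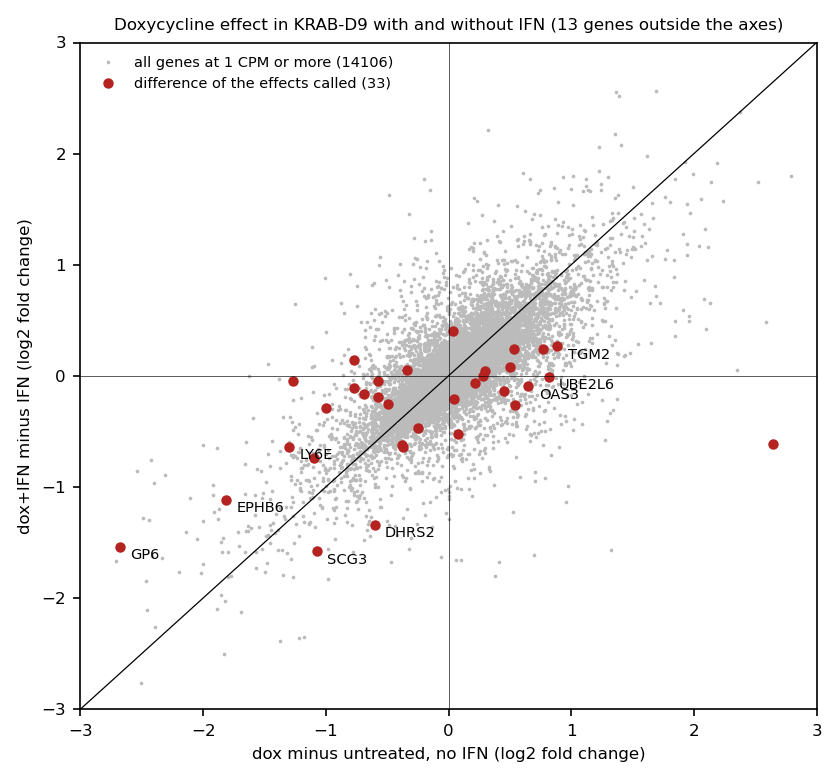
Log2 fold change with doxycycline in KRAB-D9 without interferon (horizontal) and with interferon (vertical) for 14106 genes at 1 CPM or more; the line marks equal effects, 13 genes lie outside the axes, and the axes use disjoint libraries. Red points are 33 genes whose effects were called different, among them UBE2L6 and OAS3 near 0 on the vertical axis.

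In VPR-D9, where SAMD9 was raised (3.99 in D2000 and 3.97 in D6), D2000 changed 10201 genes (46.1%), 4853 higher (21.9%) and 5348 lower (24.2%). D6 changed 1461 (6.6%), 707 higher (3.19%) and 754 lower (3.41%). Of genes lower with the repressor and interferon, 1918 were also lower in D2000 (73.0% of the first list, 35.9% of the second) and 277 were higher (10.5 and 5.71%). Of the higher genes, 1245 were also higher in D2000 (54.1 and 25.7%) and 399 lower (17.3 and 7.46%). In D6, 282 of the genes lower with the repressor were lower (10.7 and 37.4%) and 144 higher (5.48 and 20.4%), and of those higher 155 were higher (6.73 and 21.9%) and 147 lower (6.39 and 19.5%). The processome median was -0.40 with the repressor and interferon, -1 in D2000 and -0.08 in D6. In D6, 3 of 47 members were lower and 1 higher. NOL6 was at -1.48 and -0.14 and MYC at -1.60 and 0.08 in D2000 and D6. Sterol genes had medians of 0.42, -0.29 and -0.11, and IFIT and IFITM genes -0.38, 0.99 and 0.19. Genes lower with the repressor and higher in both activator groups numbered 112 (4.26% of those lower), and 279 were lower in all 3 (10.6%). Of genes higher with the repressor, 123 were lower in both activator groups (5.34%) and 149 higher in all 3 (6.47%). Over all genes, 2.94% were higher and 3.16% lower in both activator groups. Differences between the lines were not tested.

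**Figure D4:**
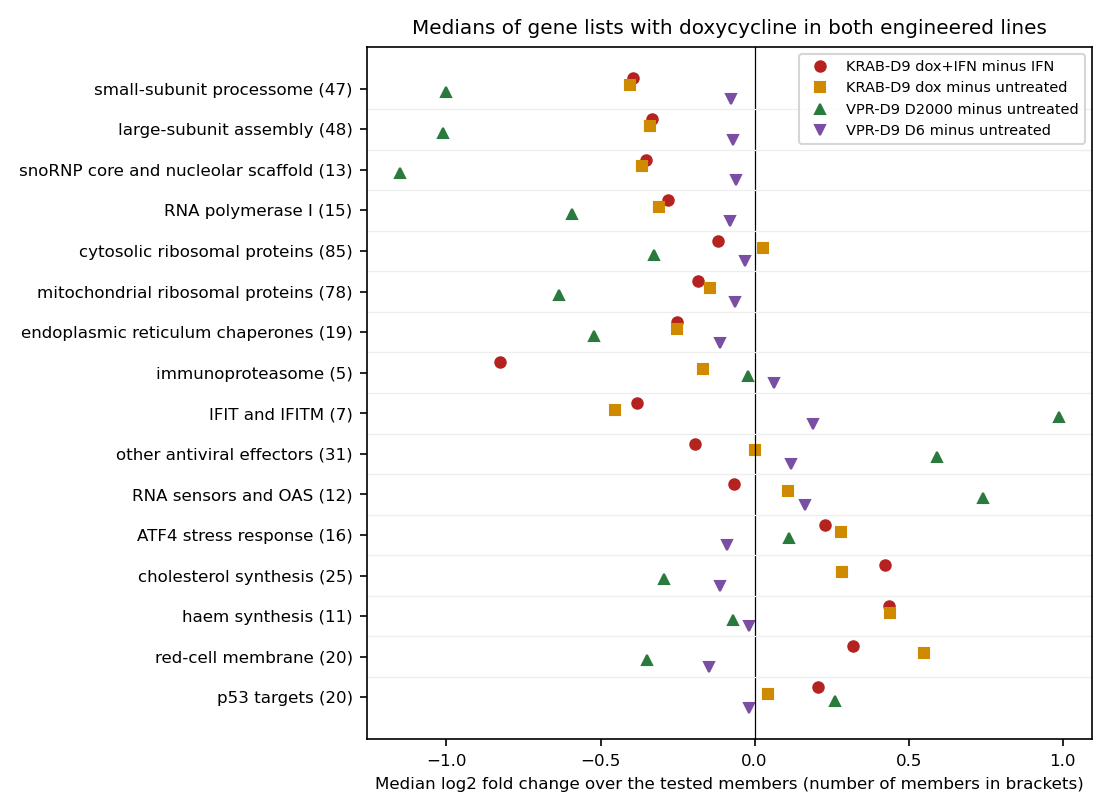
Median log2 fold change (horizontal axis) of 16 gene lists with doxycycline in KRAB-D9 with and without interferon and in VPR-D9 groups D2000 and D6; each symbol is 1 median and the number of members is in brackets. Ribosome assembly lists lie left of 0 in both lines, from -0.35 to -1.15 outside D6 for the processome and snoRNP lists, and their D6 medians lie closer to 0.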

How the data were processed

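Libraries were made with a stranded kit after poly(A) selection, per the labels' protocols. The deposited table holds whole-number read counts per gene, made by the authors; the build GRCh38.p13 and the tools featureCounts 2.0.2, STAR 2.7.8a, cutadapt 2.10 and FastQC 0.11.9 are listed per the submitters' processing notes, without roles or order. The annotation release, strand setting and treatment of multi-mapped reads were not given in the sources used here, so genes with close copies, overlaps or antisense partners are uncertain. All 18 libraries entered 1 edgeR 4.0.16 quasi-likelihood model (R 4.3.3) with 9 group means, after filterByExpr (minimum count 10) and TMM, with 9 residual degrees of freedom. Dispersion is shared, so errors for the wider-spread interferon pair may be too small. On simulated counts for 21483 genes, 68% of 50 genes changed 1.25-fold, 94% at 1.5-fold and 100% at 2-fold were recovered, with 11 false calls (5.73% of calls). The changed genes had a mean of at least 5 CPM and far fewer genes changed than were called in the data. The simulated spread followed the trend shared by all groups, not the wider spread of the interferon pair. Recovery in the real comparison may therefore be lower. The members of the comparison, lists, motifs and tests were chosen with earlier results of these data known. Named genes are SAMD9 and SAMD9L, the 12 largest rises and 12 largest falls, and the 5 smallest p in each direction. The largest rises and falls had to be called, to have at least 5 CPM and to show no overlap between the libraries of the groups. A further 8 per direction were named for the difference of effects under like conditions. Up to 5 members of each list and any member of the interferon lists were named too. Others are said to be chosen after their values were seen, as were the neighbours shown in the windows. Replicate numbers did not pair the libraries (correlation of deviations -0.000459). Alternatives were another scaling, no filter, DESeq2 1.42.0, limma 3.58.1, fewer libraries, a replicate block and leaving out each library. Some genes are not reported here.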

Additional observations from a re-analysis of the deposited data

Results flagged for a closer look

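No group had enough libraries for a check of single outlying samples. The doxycycline effect was called different with and without interferon for 20 of the genes named, each by the test of the difference in edgeR, whose log2 values (with interferon minus without) follow. The difference was positive for GP6 (1.14), PPP1R16B (0.709), EPHB6 (0.696), LY6E (0.663), STAR (0.389), PKM (0.366), PTPN7 (0.354) and LCP1 (0.241). All of these but PKM fell with doxycycline alone, GP6 from 14.3 and 14.9 CPM to 2.03 and 2.52 CPM, and PKM was at 0.03 without interferon and 0.40 with it. The difference was negative for UBE2L6 (-0.822), OAS3 (-0.746), DHRS2 (-0.739), TGM2 (-0.621), HES4 (-0.601), GMPR (-0.53), SCG3 (-0.503), CMPK2 (-0.419), KEL (-0.29), FTL (-0.269), IFITM1 (-0.256) and HSP90B1 (-0.243). HES4, a repressor that lies next to ISG15, was at 51.2 and 58.5 CPM with interferon and 40.3 and 36.4 CPM with doxycycline added, against 12.4 and 11.8 and then 13 and 12.5 CPM without interferon. GMPR and TGM2 rose in both settings, and DHRS2, SCG3, FTL and HSP90B1 fell in both.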

How the results depend on the processing

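Of 151 genes followed, 129 kept their direction and call in every setting tried. UBE2L6 (-0.01) changed sign with library totals (0.0484), limma voom (0.00351), without interferon replicate 1 (0.0457) and without doxycycline-plus-interferon replicate 2 (0.0252), with -0.0577 to 0.0457 over the libraries left out. IFITM1 (0.04) did so without interferon replicate 2, with a range of -0.0109 to 0.103. With only the 4 compared libraries 1515 genes were higher, and fewer genes were tested. Leaving out 1 library gave 1589 to 2173 higher, 1903 to 2545 lower, 4081 to 4228 without interferon, 17 to 769 for the difference of effects and -6.19 to -5.99 for SAMD9. The difference count was also 74 with no filter, 85 with DESeq2 and 14 with the 8 KRAB-D9 libraries; the cause was not tested. A replicate block gave 2304 higher and 2612 lower, 5439 without interferon and 33 for the difference, and changed no call of a named gene. Library totals gave 3109 higher and 1955 lower. Calls lost in some setting and not given above include TRIM22, IFI44, DDX60, PTPRH and STAR. LGALS3BP (-0.27), not called in the main fit, was called lower with no filter, limma voom, the 8 KRAB-D9 libraries and only the 4 compared. OAS3 was called lower with limma voom (-0.11). With 2 libraries a group, small changes and low counts limit what can be called.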
